A study of Mus musculus with 5 samples.

Results

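The RNA of 46 cell cycle genes was followed across single cells of mouse pancreatic tumours. They are 22 genes of DNA synthesis (S phase) and 24 genes of G2 phase and mitosis (G2/M), taken from the 12579 genes that both deposited tables hold. The members were listed by name, and all 46 were present in both tables. Tumours were advanced pancreatic adenocarcinomas of KPPC and KPPCN mice, 7 to 8 weeks old, from which dead cells and CD45-positive cells had been depleted before droplet capture with the 10x Genomics 3′ V3 chemistry. The labels give only these abbreviations. From what is known of the model, KPPC tumours carry deleted Trp53 alleles in the Pdx1-Cre lineage, which founds the pancreatic epithelium, and KPPCN tumours lack in addition Nsdhl, an enzyme of late cholesterol synthesis. Fibroblasts, vessels and blood cells lie outside that lineage in both genotypes. Libraries of 3 KPPC tumours and 2 KPPCN tumours (1 and 2) were used. C3, D3 and H2 are codes in the names of the KPPC cells and match no numbered sample. As there are 3 codes and 3 KPPC samples, each code was taken as 1 library. The labels name 3 mice of each genotype, and a further KPPCN tumour was not analysed here.

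A cell copies its DNA in S phase and divides in mitosis, and each step has its own transcripts. E2F transcription factors, held back by the retinoblastoma protein until the G1 cyclins act, switch on the S-phase genes. The mitotic genes come later, through the MuvB complex with B-MYB and FOXM1, which reads CHR elements next to CCAAT boxes bound by NF-Y. Both sets are textbook marks of proliferation in tumours.

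Because the phases are read through different promoter elements, the promoters of 7 members on which the results turn are shown: Ccnb2 and Cdc20 (largest differences in epithelium), Cenpf, Mki67 and Top2a (largest in fibroblasts), and Mcm5 and Mcm6 (the S-phase counterpart). Each is the 250 bases before the RefSeq transcription start in GRCm38.p6, written 5′ to 3′ on the gene's own strand. Capitals mark matches on either strand to the CHR element TTTGAA, to the box CCAAT, or to 1 of 4 E2F motifs: TTTCCCGC, or TTTGGCGC, or TTTCGCGC, or TTTGCCGC.
Ccnb2 (chr9:70421555-70421804, minus strand): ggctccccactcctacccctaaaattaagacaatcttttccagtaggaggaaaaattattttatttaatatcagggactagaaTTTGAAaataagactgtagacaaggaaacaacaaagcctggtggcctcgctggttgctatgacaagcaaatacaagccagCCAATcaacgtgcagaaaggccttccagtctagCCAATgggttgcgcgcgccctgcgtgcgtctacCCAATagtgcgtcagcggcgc
Cdc20 (chr4:118437344-118437593, minus strand): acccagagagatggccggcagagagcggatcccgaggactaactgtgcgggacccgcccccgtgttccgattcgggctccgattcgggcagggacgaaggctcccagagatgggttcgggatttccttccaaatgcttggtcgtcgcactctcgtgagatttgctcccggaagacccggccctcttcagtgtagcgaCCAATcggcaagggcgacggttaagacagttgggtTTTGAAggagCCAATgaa
Cenpf (chr1:189688087-189688336, minus strand): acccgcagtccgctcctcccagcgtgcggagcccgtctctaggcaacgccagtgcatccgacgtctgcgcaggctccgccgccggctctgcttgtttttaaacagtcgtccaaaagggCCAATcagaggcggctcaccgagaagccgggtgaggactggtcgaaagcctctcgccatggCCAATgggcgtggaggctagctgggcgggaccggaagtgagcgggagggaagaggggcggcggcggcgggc
Mki67 (chr7:135716380-135716629, minus strand): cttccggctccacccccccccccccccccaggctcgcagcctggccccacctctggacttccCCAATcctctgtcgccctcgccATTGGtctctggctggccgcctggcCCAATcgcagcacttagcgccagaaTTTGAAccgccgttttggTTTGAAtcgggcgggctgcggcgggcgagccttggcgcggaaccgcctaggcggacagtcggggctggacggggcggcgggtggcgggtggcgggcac
Top2a (chr11:99024190-99024439, minus strand): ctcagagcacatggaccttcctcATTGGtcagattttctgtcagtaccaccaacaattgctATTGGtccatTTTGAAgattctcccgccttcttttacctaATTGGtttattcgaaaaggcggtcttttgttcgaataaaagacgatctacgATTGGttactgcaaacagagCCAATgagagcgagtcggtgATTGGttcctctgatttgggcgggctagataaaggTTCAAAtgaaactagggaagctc
Mcm5 (chr8:75109259-75109508, plus strand): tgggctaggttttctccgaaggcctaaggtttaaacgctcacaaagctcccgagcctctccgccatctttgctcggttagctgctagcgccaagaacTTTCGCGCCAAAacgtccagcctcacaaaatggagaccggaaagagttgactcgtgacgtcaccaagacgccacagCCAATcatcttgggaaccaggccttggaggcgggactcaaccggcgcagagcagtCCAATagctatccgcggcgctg
Mcm6 (chr1:128359706-128359955, minus strand): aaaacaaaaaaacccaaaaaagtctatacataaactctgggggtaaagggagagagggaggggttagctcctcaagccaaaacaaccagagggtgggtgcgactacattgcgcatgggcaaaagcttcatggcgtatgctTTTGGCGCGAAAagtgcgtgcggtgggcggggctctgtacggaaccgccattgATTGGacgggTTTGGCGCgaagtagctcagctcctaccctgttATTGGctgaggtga
All 5 mitotic promoters shown held at least 2 CCAAT boxes, and all but that of Cenpf held a CHR. Both MCM promoters shown held E2F motifs, no CHR and also 2 CCAAT boxes. Other MCM members varied: an Mcm7 promoter held an E2F motif, Mcm3 held none, and Mcm2 held a CHR and no E2F motif. At least 2 CCAAT boxes stood in 55% of G2/M, 36.8% of S-phase and 11.5% of all promoters. Matches to different kinds of motif did not overlap in any promoter shown, while in both MCM promoters shown E2F matches on opposite strands shared bases. RefSeq promoters were found for 39 of the 46 members, and not for Ccne2, Mcm4, Gins2, Ccna2, Aurkb, Kif20a and Tpx2. A CHR together with a CCAAT box stood in 8 of 20 G2/M promoters (40%), in 2 of 19 S-phase promoters (10.5%) and in 6.45% of all 27025 genes in the table. CCAAT was found in 85% of G2/M and 57.9% of S-phase promoters, against 37.5% of all. An E2F motif was found in 5 S-phase promoters (26.3%), in 1 G2/M promoter (5%, Cdk1) and in 2.16% of all genes. A match is a description of these letters and not a bound site.

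After filtering, 16934 cells were used, with 2016 to 5377 per library. Median depth per cell was 17355 to 21777 unique molecular identifiers (UMIs, each 1 captured transcript) in 4 libraries and 2185 in KPPCN 1. KPPCN 1 also stood apart in its makeup: it held 1351 of 1413 T/NK-like and 1087 of 1105 B/plasma-like cells, although the protocol depleted CD45-positive cells. KPPCN 2 gave 1150 of the 1173 cells of cluster 5. Of the cell barcodes, 27 were seen in more than 1 library (54 cells). Rare genes were missing from the KPPC libraries: among the shared genes, no gene of KPPC H2 was found in 1 to 46 of its cells, and 1036 stood at 0 in all of them. The same held for 275 genes in C3 and 418 in D3, whereas the KPPCN libraries listed genes found in 1 cell. A gene listed at 0 throughout a KPPC library is therefore not shown to be absent there. Among the members this touched only Ccne2, in H2.

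Cells were clustered without the cell cycle genes and named from marker lists. Epithelial-like cells (clusters 4 and 8) had Krt18, Krt8 and Krt19 among their leading genes, and fibroblast-like cells (clusters 1 and 2) by Col3a1 and Col1a1. Clusters 5 and 9 had among their leading genes Cdkn2a, which encodes inhibitors of the G1 kinases and a guardian of p53, and Hmga2, a chromatin protein of embryonic and invasive cells. They are called the Cdkn2a/Hmga2 clusters after those genes, and cluster 9 was also led by Krt18 and Krt8. Nsdhl was not lower in KPPCN epithelial-like cells. Its level there in CPM (UMIs scaled to a common library total) was 29.3, 23.0 and 27.6 for KPPC C3, D3 and H2. KPPCN 1 and 2 had 31.1 and 35.5, on 31 and 23 UMIs. Both lay above all KPPC libraries, against the direction of the label. In fibroblast-like cells it was 8.80, 12.4 and 8.30 CPM against 5.86 and 8.52. In the Cdkn2a/Hmga2 clusters it was 11.3, 11.8 and 10.2 CPM against 18.7 and 11.7. The genotypes overlapped in both. A 3′ tag outside a deleted exon is no check of a deletion.

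Cell classes spanned a wide range of cell cycle RNA. In the plot of summed levels by class, erythroid-like cells of KPPC C3 (70 cells) stood highest, with 2673 CPM of S-phase and 6759 CPM of G2/M RNA. They were the highest class for all 24 G2/M members and for 17 of 22 S-phase members, as a single library with no spread to set beside it. Nucleated erythroid precursors divide while they make haemoglobin. Mki67, the antigen of the common proliferation stain, reached 1076 CPM there and Ube2c, which feeds the ubiquitin ligase of anaphase, 1038 CPM. Cluster 16, led by Cd74, Igkc and Lyz2, came next in S-phase RNA, with 1460 CPM in KPPC C3 and 1477 in KPPCN 1.

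Unnamed cluster 0, led by the secreted proteins Saa3 and Slpi and by the matrix gene Dcn, and the Cdkn2a/Hmga2 clusters followed, and their ranges over libraries overlapped. Summed G2/M RNA of cluster 0 was 939, 1087, 1462, 2031 and 1012 CPM in KPPC C3, D3, H2, KPPCN 1 and 2. In the Cdkn2a/Hmga2 clusters it was 832, 913, 1215, 710 and 1426 CPM in the same order. Every library with cells in both had more G2/M RNA in the Cdkn2a/Hmga2 clusters than in its epithelial-like cells, which held 476, 621, 439, 465 and 268 CPM. This order did not hold throughout for epithelial-like cluster 8 alone. It had 980 CPM in KPPC D3, above the 913 CPM there, and 667, 675 and 599 CPM in KPPC C3, H2 and KPPCN 1, below. Endothelial-like cells lay between 507 and 735 CPM and mesothelial-like cells between 299 and 571 CPM, so these classes and the epithelium did not separate. Acinar-like cells, which make digestive enzymes, had 230 and 232 CPM. Lowest of all classes by mean was cluster 20, led by Srgn, Cxcl2 and G0s2, at no more than 58.5 CPM.

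S-phase RNA stood above mitotic RNA in the lymphocyte-like cells, and not only there. T/NK-like cells had 421 and 443 CPM of S-phase RNA in KPPC C3 and KPPCN 1, inside the epithelial range of 392 to 476 CPM, and 85.9 and 192 CPM of G2/M RNA. B/plasma-like cells of KPPCN 1 had 484 and 250 CPM. The ratio of S-phase to G2/M RNA was 4.9 and 2.31 in T/NK-like cells, the first on 10 G2/M UMIs. It was 1.93 in B/plasma-like cells. In cluster 20 it was 7.5, 4.25 and 5, and in cluster 17 it was 2.44, 1.01 and 2 (KPPC C3, D3 and H2). Over 68 sums of 1 class in 1 library, summed S-phase and G2/M levels had a Spearman correlation of 0.80, a description since sums of 1 library share depth and preparation. Outside the cell cycle lists, the genes whose levels ranked most like G2/M RNA among 2802 compared were Selenoh (Spearman 0.71), Hist1h2ap (0.69), Ube2s (0.67) and Dtymk (0.67). Those most like S-phase RNA were Anp32b, Selenoh, Nasp and Hist1h2ap (each 0.76). Dtymk makes thymidine diphosphate, and Nasp is a histone chaperone.

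**Figure D1:**
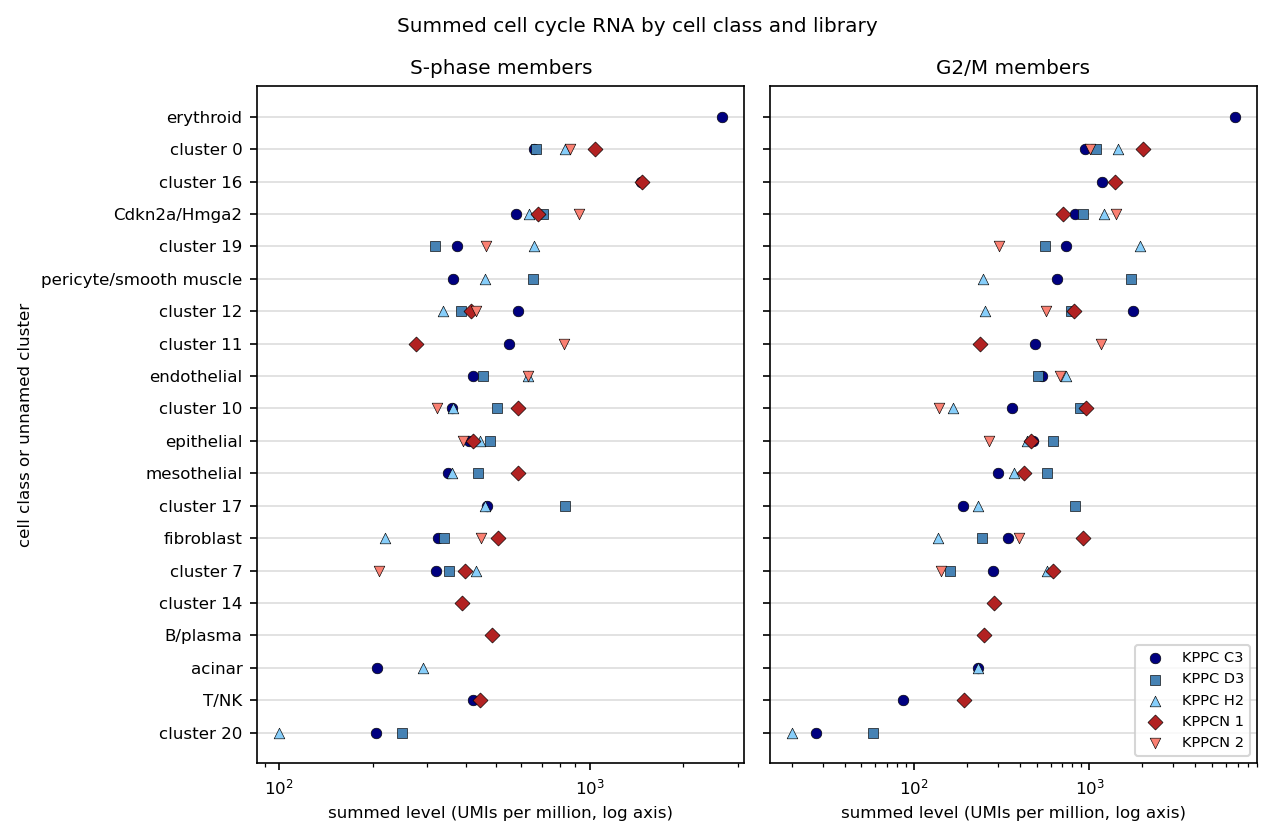
Summed S-phase (left) and G2/M (right) RNA in CPM, on log axes, for each cell class or unnamed cluster; each point is 1 library with at least 20 cells. Erythroid-like cells of KPPC C3 lie farthest right in both panels, at 2673 and 6759 CPM.

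The share of cells with cell cycle RNA was counted after every cell had been thinned to 1000 UMIs, as cells with at least 2 different members. In epithelial-like cells 8.06, 8.28 and 4.37% passed for G2/M in KPPC C3, D3 and H2, and 6.59 and 5.88% in KPPCN 1 and 2. Both KPPCN values fell inside the KPPC range. S-phase shares were 6.69, 7.37 and 7.09% in KPPC and 5.49 and 5.88% in KPPCN, both below, an order that turned at 500 UMIs and at resolution 2 (ratio of means 0.807, 1.23 and 1.19). Each KPPCN share rested on few cells, and KPPCN 2 rested on 2 of 34 cells (exact 95% binomial intervals are drawn in the plot of shares, and they cover counting error only). Without thinning the G2/M shares were 49.8, 49.5, 43.7, 26.9 and 47.1%, with the lowest in KPPCN 1, the shallowest library. In cluster 20, as a floor for free RNA, 0 of 41, 0 of 26 and 0 of 35 cells passed for G2/M in KPPC C3, D3 and H2. For S phase 2, 1 and 0 of these cells passed (4.88, 3.85 and 0%). Of B/plasma-like cells in KPPCN 1, 1.04% passed for G2/M and 5.56% for S phase. The epithelial S-phase shares thus lay near this floor. Of the erythroid-like cells 71.4% passed for G2/M.

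**Figure D2:**
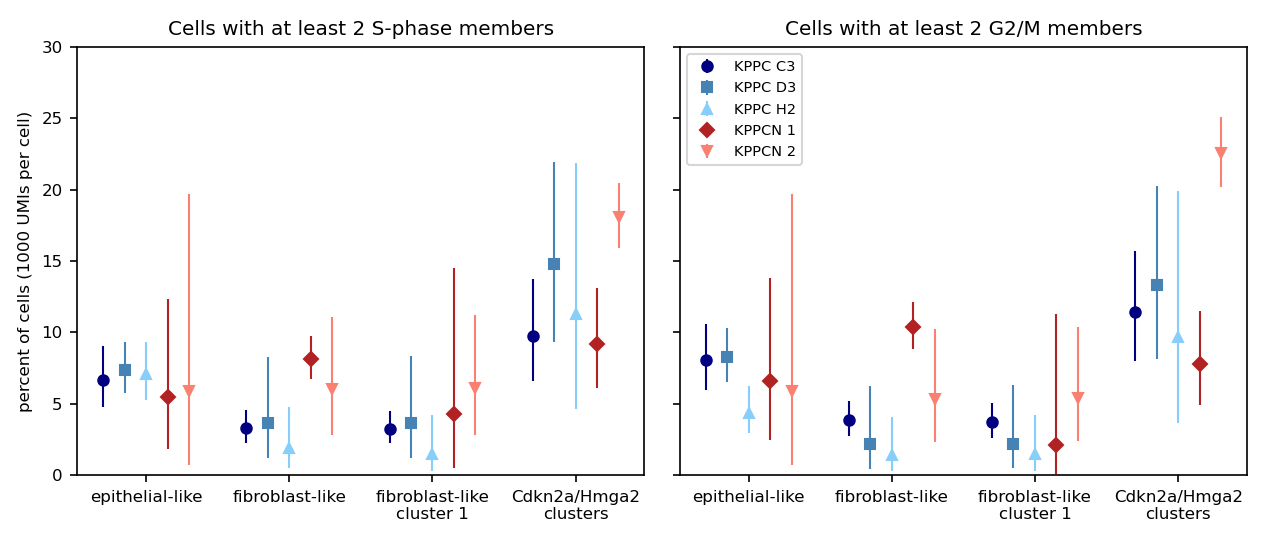
Percent of cells with at least 2 S-phase (left) or G2/M (right) members at 1000 UMIs per cell; points are libraries and bars exact 95% binomial intervals. In fibroblast-like cells both KPPCN libraries lie above KPPC for G2/M (10.4 and 5.33% against at most 3.85%), while in cluster 1 alone KPPCN 1 falls to 2.13%.

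In epithelial-like cells the question was whether the KPPCN label went with a change in proliferation. Which classes hold the tumour cells was not tested, and KPPCN 2 had 34 epithelial-like cells and 1157 cells in the Cdkn2a/Hmga2 clusters. Over the whole class most mitotic genes had lower values in KPPCN, and no member passed the test. Of the 24 G2/M members 22 were lower, with a median log2 difference of -0.43, and of the 22 S-phase members 15 were lower, with a median of -0.12, against -0.0030 over all genes tested. The KPPCN pair was under every KPPC library for 10 G2/M and 5 S-phase members, on scaled levels, where 17.4% of all 12197 genes did so, and above them for 1 and 3, where 15.6% did. limma called 0 members and 0% of all genes (lowest adjusted p = 0.466), and at an unadjusted p under 0.05 it had 6 G2/M and 2 S-phase members and 1057 genes in all (8.67%).

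Ccnb2, a cyclin that drives entry into mitosis, measured 32.0, 32.2 and 27.5 CPM in the KPPC libraries (C3, D3, H2), against 12.1 and 6.20 CPM in KPPCN 1 and 2. The genotypes did not overlap, on 12 and 4 UMIs in KPPCN. Its log2 difference was -1.35 (SE 0.23, n = 3 and 2, limma adjusted p = 0.548).
Cdc20, the activator that starts anaphase, measured 33.7, 43.4 and 28.6 CPM against 24.2 and 6.20 CPM, a log2 difference of -1.08 (SE 0.39, limma adjusted p = 0.548; -0.46 without KPPCN 2 and -1.91 without KPPCN 1). Both KPPCN libraries again lay below, KPPCN 2 far more so.
Cenpe, the kinesin that brings chromosomes to the spindle equator, measured 20.2, 24.0 and 18.9 CPM against 12.1 and 6.20 CPM, a difference of -0.90 (SE 0.25, limma adjusted p = 0.548).
The members that lay above in KPPCN differed by less. Uhrf1, which carries DNA methylation through replication, differed by 0.32 (SE 0.22), Anln, a scaffold of the cleavage furrow, by 0.32 (SE 0.30) and Chek1, the kinase of the replication checkpoint, by 0.30 (SE 0.24), with limma adjusted p of 0.695, 0.775 and 0.734. Without KPPCN 1 Uhrf1 differed by 0.11 and Chek1 by 0.16, and without KPPC H2 Anln differed by 0.20. Uhrf1 turned to -0.34 and -0.13 at clustering resolutions 0.5 and 2, and Chek1 to -0.03 at 0.5.

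The epithelial difference was smaller without KPPCN 2, whose 34 epithelial-like cells gave 173 G2/M UMIs. Without it the median of the G2/M members was -0.14 and that of the S-phase members 0.05, and without KPPCN 1 they were -0.81 and -0.30. Summed G2/M RNA overlapped between genotypes, with a log2 difference of -0.58 (pooled SD 0.41) that turned to 0.051 at clustering resolution 2, where 10 of 24 members were higher. The -0.58 used trimmed-mean scaling of libraries and the 0.051 did not. The class joins clusters that differ in G2/M RNA. In cluster 4 it was 209, 394 and 236 CPM in KPPC and 298 and 353 CPM in KPPCN 1 and 2, so KPPCN lay inside the KPPC range. In cluster 8 it was 667, 980 and 675 CPM in KPPC and 599 CPM in KPPCN 1, below all KPPC libraries. KPPCN 2 had 24 of its 34 cells in cluster 4 and 10 in cluster 8. The epithelial-like cells of KPPCN 2 also held 2872 CPM of acinar markers against 128 to 223 CPM in the other libraries, and those of KPPCN 1 held 5245 CPM of erythroid markers against 0 to 158 CPM. The 0 was in KPPC D3, with all 5 erythroid markers listed at 0 in these cells, which does not show absence there. All 10 epithelial markers were detected in each library, at 11833 to 15331 CPM in sum. The part of acinar and erythroid RNA in the differences was not tested.

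Top2a, the topoisomerase that untangles replicated DNA, measured 32.3, 45.4 and 28.9 CPM in KPPC epithelium and 43.3 and 58.9 CPM in KPPCN, while Mki67 measured 29.2, 33.7 and 27.4 CPM against 44.4 and 9.30 CPM. For both genes the genotypes overlapped. Ccnb1, the main mitotic cyclin, measured 19.0, 23.0 and 16.0 CPM against 13.1 and 6.20 CPM, and both KPPCN values lay below. Cdk1, the kinase it activates, measured 17.3, 24.9 and 9.94 CPM against 15.1 and 7.75 CPM, which overlapped.

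Among S-phase genes, Mcm6, a subunit of the replicative helicase, measured 53.5, 66.1 and 54.7 CPM in KPPC and 38.3 and 34.1 CPM in KPPCN, with both KPPCN libraries below. Mcm5, of the same helicase, measured 18.1, 18.2 and 16.2 CPM against 22.2 and 12.4 CPM and overlapped. Tyms, which makes thymidylate, measured 25.5, 31.3 and 29.6 CPM against 17.1 and 17.1 CPM and lay below. Pcna, the clamp of the replication fork, measured 31.2, 36.9 and 39.5 CPM against 30.2 and 29.5 CPM. Rrm2, the regulated subunit of ribonucleotide reductase, measured 8.73, 10.3 and 11.3 CPM against 10.1 and 6.20 CPM. Pcna lay just below the KPPC range in both KPPCN libraries, and Rrm2 overlapped.

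**Figure D3:**
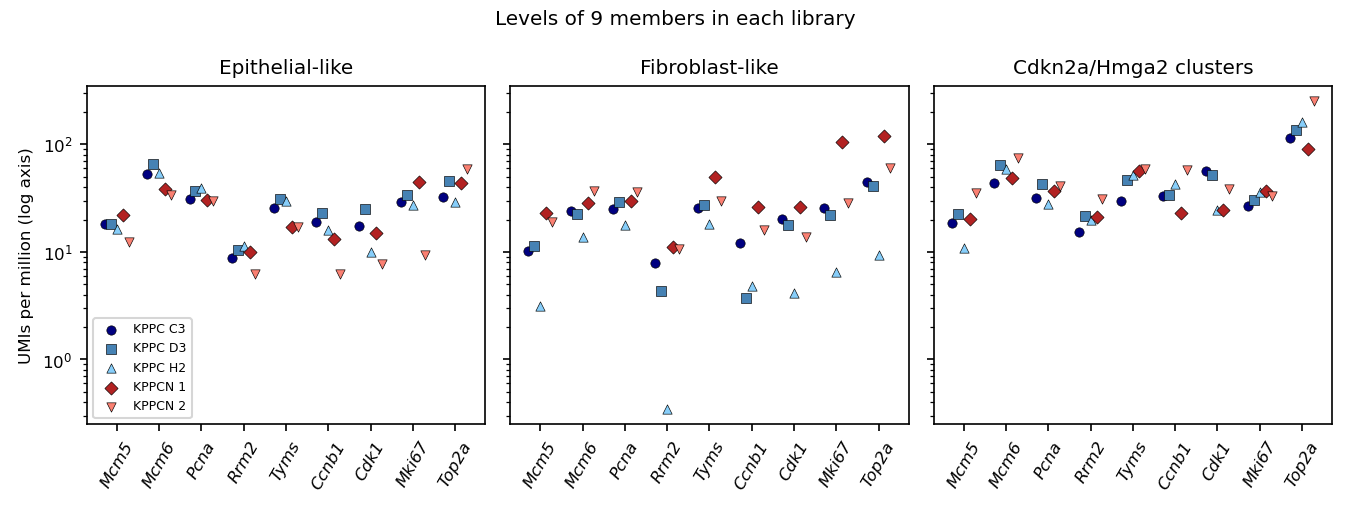
Levels of 9 members in CPM (log axis) in epithelial-like cells, fibroblast-like cells and the Cdkn2a/Hmga2 clusters; each point is 1 library. In fibroblast-like cells KPPC H2 is lowest for 8 of the 9 (KPPC D3 for Ccnb1), and Top2a is the highest of the 9 in every library of the Cdkn2a/Hmga2 clusters.

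Mitotic members were often found in the same epithelial cells. Among KPPC epithelial-like cells thinned to 2000 UMIs, 91 had a Top2a UMI, and Nusap1, which bundles spindle microtubules, was found in 17.6% of them and in 1.05% of the other 1999. Aurka, the kinase of the spindle poles, was found in 11.0 and 0.50%, and Ube2c in 31.9 and 3.90%. The ratio of these shares had a median of 8.17 over the other 23 G2/M members, from 2.80 for Kif23 upwards. S-phase members were found more often beside Top2a too: 20 of 22 had a ratio above 1, with a median of 3.20. Among them Uhrf1 was found in 7.69 and 1.05%, Rrm2 in 9.89 and 1.40%, Mcm6 in 12.1 and 10.7% and Mcm4 in 2.20 and 2.90%. Beside Mcm5, found in 52 cells, the median ratio was 2.57 over 21 S-phase members and 4.35 over 24 G2/M members. These shares are descriptions, since the cells come from 3 libraries and most genes were seen in few cells.

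In fibroblast-like cells both phases stood higher in KPPCN. The class was named from markers, and whether its cells lie outside the deleted lineage was not tested. All 24 G2/M members were higher, with a median log2 difference of 0.93, and 20 of the 21 S-phase members tested were higher, with a median of 0.50, against 0.02 over all genes. Chek1 fell under the filter on low counts, and Slbp was the S-phase member that was lower. The KPPCN pair exceeded every KPPC library for 13 G2/M and 16 S-phase members, where 14.6% of 10702 genes did so, and below them for 0 members, where 12.5% did. limma called 0 members and 0.0374% of all genes (4 genes, lowest adjusted p = 0.0493), while 15 G2/M and 8 S-phase members had an unadjusted p under 0.05, as did 8.82% of all genes (944).

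Summed G2/M RNA was 341, 244 and 136 CPM in the KPPC libraries (C3, D3, H2), against 920 and 394 CPM in KPPCN 1 and 2, without overlap. Summed S-phase RNA was 325, 340 and 220 CPM against 509 and 448 CPM, also without overlap.
Mki67 measured 25.4, 22.0 and 6.57 CPM against 104 and 28.4 CPM, a log2 difference of 1.48 (SE 0.55, limma adjusted p = 0.525). KPPCN 1 stood far above the rest and KPPCN 2 just above KPPC C3.
Top2a measured 44.3, 41.4 and 9.34 CPM against 120 and 60.8 CPM, a difference of 1.41 (SE 0.52, limma adjusted p = 0.525).
Cenpf, a kinetochore protein, measured 17.6, 8.06 and 8.30 CPM against 69.5 and 24.6 CPM, a difference of 1.49 (SE 0.41, limma adjusted p = 0.471). In all 3 genes KPPCN 1 was the high library, and without it Mki67 differed by 0.44, Top2a by 0.84 and Cenpf by 0.64. Top2a differed by 0.88 without KPPC H2.

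The other members of the fixed set were as follows. Ccnb1 measured 12.0, 3.76 and 4.84 CPM against 26.1 and 16.1 CPM, above KPPC in both. Cdk1 measured 20.3, 17.7 and 4.15 CPM against 26.2 and 13.7 CPM, which overlapped. Mcm5 measured 10.2, 11.3 and 3.11 CPM against 22.9 and 18.8 CPM, Mcm6 24.1, 22.6 and 13.8 CPM against 28.8 and 36.6 CPM, and Tyms 25.7, 27.4 and 18.3 CPM against 49.5 and 30.1 CPM. All 3 lay above in KPPCN, as did Rrm2, at 7.91, 4.30 and 0.346 CPM against 11.1 and 10.6 CPM. Pcna measured 25.3, 29.0 and 17.6 CPM against 29.8 and 35.9 CPM, apart in CPM by less than 1 unit and overlapping once libraries were scaled.

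The fibroblast result rested on which cells were compared. Of the KPPCN 1 fibroblast-like cells 1455 of 1502 lay in cluster 2, which held 25 cells of all other libraries and was led by Col3a1, Col1a1, Meg3 and C3. In cluster 1, which all libraries share, G2/M RNA was 330, 248 and 139 CPM in KPPC and 132 CPM in KPPCN 1 (47 cells) and 395 CPM in KPPCN 2. KPPCN 1 then lay below every KPPC library, and the summed G2/M difference fell from 1.33 to 0.02 on the log2 scale. The first value used trimmed-mean scaling of libraries and the second did not. In cluster 1 alone 14 of 22 G2/M members tested were higher and 1 lay above without overlap. S-phase RNA there was 320, 338 and 222 CPM in KPPC and 299 and 448 CPM in KPPCN 1 and 2, so that the genotypes overlapped. Of the S-phase members 18 of 19 were higher, with a median of 0.39, and 9 lay above. Over all 10566 genes of that fit 11.8% lay above.

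Without KPPCN 1, 19 of 24 G2/M members were higher, with a median of 0.37, and without KPPCN 2 all 24 were, with a median of 1.15. The fibroblast-like cells of KPPCN 1 were shallow (median 3405.5 UMIs against 12189 to 18886). They held 3493 CPM of erythroid markers, against at most 180 CPM elsewhere (all 5 listed at 0 in KPPC D3). T/NK markers, of which 2 of 10 stood in both tables, were in sum 53.5 and 26.9 CPM in KPPCN 1 and 2 and 1.04 to 4.23 CPM in KPPC, and epithelial markers were lower in KPPCN, at 155 and 80.4 CPM against 273 to 312 CPM. Cdkn2a itself was higher, at 17.6, 11.3 and 5.88 CPM against 32.2 and 64.0 CPM, a log2 difference of 1.46 (SE 0.37, limma adjusted p = 0.424). Hmga2 measured 15.3, 4.84 and 5.19 CPM against 10.6 and 53.1 CPM, highest in KPPCN 2. Their part in the result was not tested.

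Thinned shares of fibroblast-like cells with G2/M RNA were 3.85, 2.17 and 1.42% in KPPC and 10.4 and 5.33% in KPPCN, and with S-phase RNA 3.27, 3.62 and 1.89% against 8.15 and 6.0%. Both KPPCN libraries lay above. The KPPC S-phase shares fell within the 0 to 4.88% that passed for S phase in cluster 20. At clustering resolution 2 the G2/M share of KPPCN 2 was 2.17%, inside the KPPC range of 1.48 to 3.65%. When the cell cycle genes were kept in the clustering the shares were 0 to 2.01% in all libraries, but the class then held other cells. An unnamed cluster with Col1a1, Top2a and Mki67 among its leading genes then took 260 cells, 163 of them from KPPCN 1, and another took 1255 KPPCN 1 cells. The share of S-phase cells without thinning was lower in KPPCN 1 (32.5%) than in every other library, beside its lower depth.

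**Figure D4:**
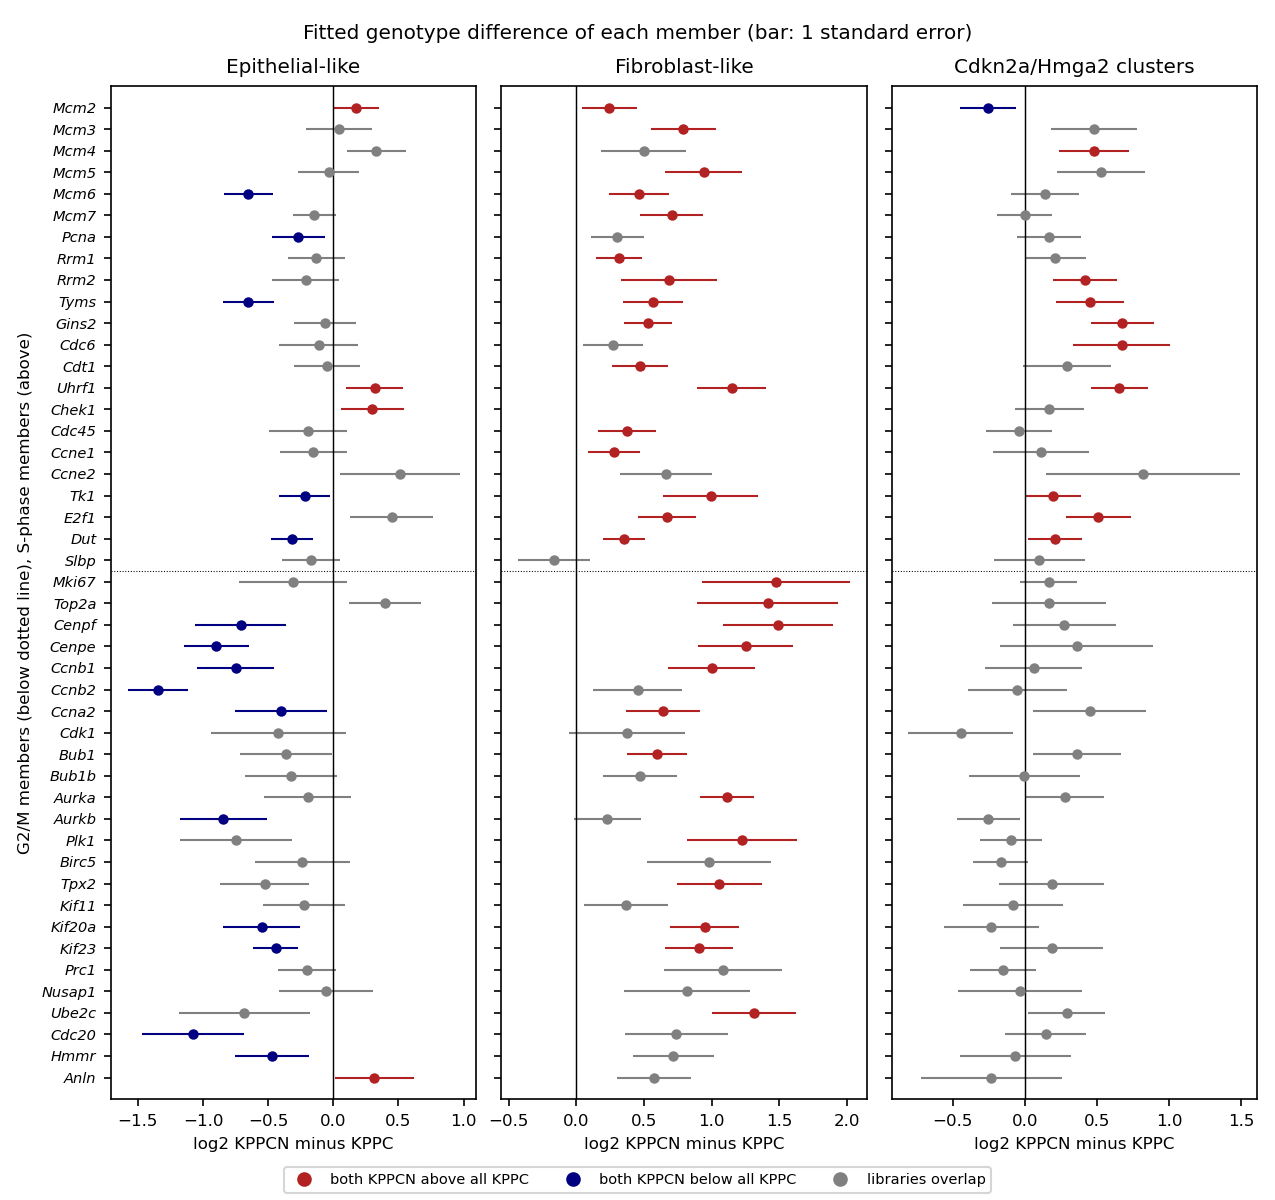
Fitted log2 difference (KPPCN minus KPPC, bar 1 standard error) of each member in 3 populations; colours show whether the libraries of the genotypes overlap. In fibroblast-like cells all 24 G2/M members lie right of 0, and in epithelial-like cells 22 of 24 lie left of it; no member passed adjusted p of 0.05.

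The epithelial and fibroblast differences were compared directly by taking, in each library, the level in fibroblast-like minus that in epithelial-like cells, a test added after the results were known. limma called 0 members and 0% of 12015 genes. The lowest adjusted p among members was 0.105, shared by Cenpf, Cenpe, Plk1 and Tpx2, whose genotype differences were larger in fibroblasts by 2.30, 2.24, 2.15 and 1.65 on the log2 scale. The same comparison of the Cdkn2a/Hmga2 clusters with epithelial-like cells called 0 members and 0% of 12142 genes (lowest adjusted p among members 0.467, Tyms).

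In the Cdkn2a/Hmga2 clusters S-phase genes were mostly higher in KPPCN and mitotic genes were split. Of the S-phase members 19 of 22 were higher, with a median log2 difference of 0.25, and of the G2/M members 12 of 24, with a median of 0.03, against 0.02 over all genes. Both KPPCN libraries lay above for 9 S-phase and 0 G2/M members, where 12.3% of 11420 genes did so, and below for 1 S-phase member, where 9.17% did. limma called 0 members and 0% of genes (lowest adjusted p = 0.181), with 2 S-phase and 0 G2/M members and 755 genes in all (6.61%) at an unadjusted p under 0.05.

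Gins2, a subunit of the GINS complex of the replicative helicase, measured 17.1, 20.2 and 14.3 CPM in KPPC and 26.2 and 35.5 CPM in KPPCN, a log2 difference of 0.68 (SE 0.22, limma adjusted p = 0.710). Uhrf1 measured 15.8, 18.3 and 21.7 CPM against 28.0 and 34.8 CPM, a difference of 0.66 (SE 0.20, limma adjusted p = 0.703). Cdc6, which loads the helicase, measured 4.78, 5.50 and 0 CPM against 5.90 and 11.8 CPM, a difference of 0.67 (SE 0.34, limma adjusted p = 0.742). In all 3 KPPCN 2 was highest, and Cdc6 differed by 0.30 without it and by 0.44 without KPPC H2. Mcm2, of the helicase itself, was the member that lay below, at 22.3, 19.1 and 21.7 CPM against 17.9 and 16.3 CPM, a difference of -0.26 (SE 0.20, limma adjusted p = 0.833; -0.17 without KPPC C3).

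The KPPCN libraries went apart in mitotic RNA. G2/M RNA was 710 CPM in KPPCN 1, lowest of the 5, and 1426 CPM in KPPCN 2, the highest. Without KPPCN 1, 21 G2/M members were higher with a median of 0.53, and without KPPCN 2, 23 of 24 were lower with a median of -0.44. The clusters were not the same cells: KPPCN 2 gave 1150 of its 1157 cells from cluster 5 and the other libraries nearly all from cluster 9. Epithelial markers in sum were 734 CPM in KPPCN 2 and 2509 to 4119 CPM elsewhere. In KPPCN 1 these clusters held 1597 CPM of erythroid markers against at most 398 CPM elsewhere (all 5 listed at 0 in KPPC D3). B/plasma markers (2 of 10 in both tables) stood at 624 CPM in KPPCN 1 against 2.72 to 16.5 CPM elsewhere. Their part in the result was not tested. Cluster and library cannot be told apart here. Of KPPCN 2 cells 22.6% had G2/M RNA at 1000 UMIs, against 11.5, 13.3 and 9.68% in KPPC and 7.75% in KPPCN 1.

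Of the 9 members given in every population, Top2a measured 115, 136 and 161 CPM in KPPC, against 90.2 and 251 CPM in KPPCN 1 and 2, lowest and highest in the KPPCN pair. Ccnb1, at 33.3, 33.8 and 42.8 CPM against 23.1 and 57.3 CPM, had the same order. Cdk1 measured 56.2, 51.4 and 24.5 CPM against 24.3 and 38.3 CPM. Mki67 stayed in a narrow range, at 26.6, 30.7 and 36.0 CPM against 37.1 and 32.8 CPM. Tyms (29.7, 46.7 and 52.3 CPM against 56.2 and 58.9) and Rrm2 (15.2, 21.5 and 19.7 CPM against 21.2 and 31.3) lay above in both KPPCN libraries once libraries were scaled, and Rrm2 overlapped in unscaled CPM. Mcm5 (18.4, 22.5 and 10.9 CPM against 20.3 and 35.6), Mcm6 (44.2, 64.2 and 59.1 CPM against 49.1 and 74.0) and Pcna (31.8, 43.0 and 27.8 CPM against 36.9 and 41.3) overlapped.

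Mki67 and Top2a parted between classes. Since 3′ UMIs are counted per transcript and each gene is captured with its own efficiency, the ratio is compared only between populations. Mki67 UMIs per Top2a UMI were 0.232, 0.226, 0.224, 0.411 and 0.131 in the Cdkn2a/Hmga2 clusters of KPPC C3, D3, H2, KPPCN 1 and 2. In fibroblast-like cells they were 0.573, 0.532, 0.704, 0.871 and 0.466, and in epithelial-like cells 0.904, 0.742, 0.948, 1.02 and 0.158. In every library the Cdkn2a/Hmga2 clusters were lower than these 2 populations. Low ratios were not particular to the Cdkn2a/Hmga2 clusters. Cluster 11 had 0.305 in KPPC C3 and 0.114 in KPPCN 2, and acinar-like cells had 0.262 in KPPC C3 but 1.24 in KPPC H2. KPPCN 2 epithelium, with 6 Mki67 and 38 Top2a UMIs, was the exception to the high epithelial values. Erythroid-like cells had 1.60. In KPPCN 2 a Mki67 UMI was found in 2.42% of Cdkn2a/Hmga2 cells at 1000 UMIs, although 22.6% had G2/M RNA.

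**Figure D5:**
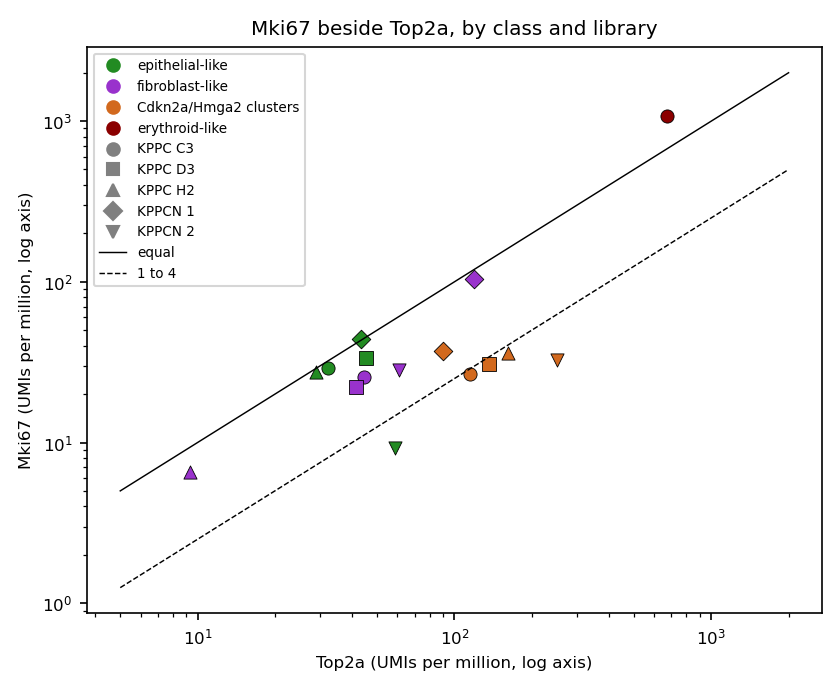
Mki67 against Top2a in CPM (log axes) for 4 classes; each point is 1 library, the solid line marks equal levels and the dashed line 1 Mki67 to 4 Top2a. The Cdkn2a/Hmga2 clusters lie near or below the dashed line, except KPPCN 1 at a ratio of 0.411.

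Of the 46 members, only Ube2c, Rrm2, Cdc45 and Rrm1 differed without overlap in their share of a list, and all others overlapped. No such share was taken for genes outside the lists, so no background rate stands beside this. Ube2c gave 12.8 to 18.6% of the G2/M UMIs in the Cdkn2a/Hmga2 clusters and 5.78 to 12.7% in the 10 sums of epithelial- and fibroblast-like cells, without overlap. Rrm2 gave 2.62 to 3.38% of S-phase UMIs against 0.157 to 2.54%, and Cdc45, a helicase partner, 1.81 to 3.21% against 0.395 to 1.43%. Rrm1, the large subunit of ribonucleotide reductase, went the other way, with 3.31 to 4.40% against 4.74 to 17.0%.

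Over all cells both lists were mostly higher in KPPCN, with 21 of 22 S-phase members (median 0.46) and 21 of 24 G2/M members (median 0.31), against 0.04 over all genes. Such sums mix classes, so that more cells of a cycling class and more RNA per cell cannot be told apart. Both KPPCN libraries lay above for 15 S-phase and 5 G2/M members, where 18.7% of 12556 genes did so, and below for 0, where 17.6% did. limma called 0 members and 0.00796% of genes (1 gene), with 9 S-phase and 1 G2/M members at an unadjusted p under 0.05, where 16.3% of all genes (2047) lay. E2f1, itself an E2F factor, measured 16.9, 13.1 and 10.5 CPM against 27.0 and 36.0 CPM, a log2 difference of 0.99 (SE 0.20, limma adjusted p = 0.129). Top2a differed by 0.98 (SE 0.35, adjusted p = 0.274; 1.55 without KPPCN 1 and 0.43 without KPPCN 2) and Uhrf1 by 0.87 (SE 0.16, adjusted p = 0.110).

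Without KPPCN 1, 13 S-phase and 10 G2/M members passed limma's test, as did 26.1% of all genes (3280), in a comparison of 3 libraries with the lone KPPCN 2, which is assumed to vary like KPPC. Of KPPCN 2 cells 1157 of 2016 were in the Cdkn2a/Hmga2 clusters. Without KPPCN 2 the medians fell to 0.19 and 0.06 and 0 members passed.

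Cyclin E2, which with CDK2 opens S phase, was read only outside KPPC H2, where Ccne2 is listed at 0 in every cell. It had 491 and 329 UMIs in KPPC C3 and D3 and 112 and 1499 in KPPCN 1 and 2, or 6.11, 4.35, 4.12 and 28.2 CPM. KPPCN 2 was high, and KPPCN 1 was lower than both KPPC libraries. Its partner Ccne1, found in every library, measured 7.35, 8.46, 7.23, 8.32 and 9.48 CPM in KPPC C3, D3, H2, KPPCN 1 and 2.

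Companion genes of the pathway, in 7 lists, gave 0 calls in any population. In epithelial-like cells 14 of 15 kinetochore and checkpoint genes were lower (median -0.32, largest Mad2l1, -0.85) and 13 of 13 condensin and chromatin genes were lower (median -0.26). Replication fork genes there were mixed, 14 higher and 11 lower. In fibroblast-like cells 22 of 23 replication fork genes were higher (median 0.36, largest Prim1, 0.80) and 13 of 13 condensin and chromatin genes were higher (median 0.48). Of mitotic entry, exit and cytokinesis genes 11 were lower and 5 higher in epithelial-like cells, and 11 were higher and 2 lower in fibroblast-like cells. CDK inhibitors were split in each population, 4 higher and 3 lower. Pocket protein, E2F and MuvB genes were mixed, with 7 higher and 4 lower in fibroblast-like cells. No share over all genes was set beside these counts. G1 regulators were split: of 6 G1 cyclins and kinases 4 were higher in fibroblast-like cells, led by Ccnd1 (0.98, limma adjusted p = 0.383), and 5 were lower in the Cdkn2a/Hmga2 clusters. Of the pocket protein, E2F and MuvB genes, E2f7 (0.79) was largest in fibroblast-like cells, but it is listed at 0 in KPPC D3 and H2, and Mybl2 (0.74), listed at 0 in H2, in the Cdkn2a/Hmga2 clusters.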

How the data were processed

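The deposited values are natural log values of 1 plus UMIs per 10000 per cell, made by the authors. Per the submitters' processing notes, the build was GRCm38 and the tools were Seurat 3.0.2, Cell Ranger 2.1.0 and R 3.5.1. All values gave whole UMIs within 0.01, so UMIs were recovered and summed per library and population. Of 17771 barcodes, 801 with under 500 genes or over 20% mitochondrial UMIs were left out. Scrublet marked 36 cells (0.212%), which is too few to show that it worked, so doublets remain. Cells were clustered in scanpy 1.11.5 (2000 variable genes without cell cycle genes, 30 components, 20 neighbours, leidenalg 0.10.2 at resolution 1). limma 3.58.1 in R 4.3.3 tested log2(CPM + 5) over all genes with trimmed-mean scaling, precision weights and Benjamini-Hochberg adjustment; fold changes on this scale understate low genes. Script code was tested on simulated data. Members and lists were chosen with earlier results of these data known. Named members were the 9 given in every population and, in each population, up to 3 per direction with the largest difference among those whose genotypes did not overlap and with at least 30 UMIs. Each of the 7 companion lists is described by counts in some of the populations. Total UMIs per library were 27153208 to 80354297.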

Additional observations from a re-analysis of the deposited data

How the results depend on the processing

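No paired analysis was possible because the KPPC columns carry codes and no replicate numbers. Leaving out each library gave 0 to 4 called genes in epithelial-like cells, 0 to 46 in fibroblast-like cells (46 without KPPCN 2), 0 to 318 in the Cdkn2a/Hmga2 clusters (318 without KPPCN 1) and 0 to 3280 over all cells (3280 without KPPCN 1, 111 without KPPCN 2). Thinning cells before summing gave 3, 1, 1 and 103 calls in that order. In fibroblast-like cells the count of 4 became 0 at resolution 0.5, with list genes kept in the clustering, with total scaling, with a pseudocount of 1 and with no filter, 1 in cells with at least 1000 genes and 7 at resolution 2. Over all cells it became 3 with total scaling and 4 with a pseudocount of 1. Chosen after seeing the data, leaving out genes at 0 in a KPPC library gave 17 calls in fibroblast-like cells and 126 over all cells, and cluster 1 alone gave 8.

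The log2 difference in summed S-phase RNA of epithelial-like cells turned to 0.082 with thinned cells and was -0.059 in cells with at least 1000 genes; leaving out a library gave -0.28 to -0.08. That of G2/M RNA turned to 0.051 at resolution 2 and spanned -1.03 to -0.13. In fibroblast-like cells the S-phase difference was 0.31 with list genes kept and 0.34 in cluster 1 alone (0.45 to 0.72 on leaving out a library), and the G2/M difference 0.023 in cluster 1 alone (0.75 to 1.92). In the Cdkn2a/Hmga2 clusters the S-phase difference was 0.10 with thinned cells (0.12 to 0.51) and the G2/M difference spanned -0.43 to 0.52. Over all cells they spanned 0.28 to 0.73 and 0.18 to 0.87. Summed differences in the main setting and on leaving out a library used trimmed-mean scaling, and those of the other settings did not. Uhrf1 in epithelial-like cells turned to -0.34 and -0.13 at resolutions 0.5 and 2, and Chek1 to -0.028 at 0.5.

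The ratio of mean S-phase shares (KPPCN to KPPC) in epithelial-like cells, 0.807, was 0.724 unthinned, 1.23 at 500 UMIs, 0.753 at 2000, 1.08 with 1 member, 1.20 with 3, 0.995 and 1.19 at resolutions 0.5 and 2, 0.644 with list genes kept and 0.957 with at least 1000 genes (0.779 to 0.834 on leaving out a library). Its G2/M ratio, 0.903, was 0.262 with 3 members and 0.487 at resolution 0.5 (0.764 to 1.00). In fibroblast-like cells the S-phase ratio, 2.42, was 0.791 unthinned, 1.26 with 1 member, 1.77 at resolution 0.5 and 1.51 with at least 1000 genes (2.05 to 2.78), and the G2/M ratio, 3.17, was 1.27 with at least 1000 genes (where 937 KPPCN 1 cells fell in an unnamed cluster and KPPCN 1 left the comparison) and 1.53 in cluster 1 alone (2.15 to 4.38). In the Cdkn2a/Hmga2 clusters the S-phase ratio, 1.14, was 3.16 at 500 UMIs, 2.04 with 3 members, 0.803 at resolution 2 and 0.796 with at least 1000 genes (0.767 to 1.52), and the G2/M ratio, 1.32, was 0.817 at resolution 2 (0.674 to 1.97). Over all cells the S-phase ratio, 1.53, was 0.716 unthinned (1.07 to 1.98), and the G2/M ratio, 1.51, spanned 0.748 to 2.26. The cause was not tested. With 2 KPPCN libraries, one of them shallow, the spread between tumours limits every comparison.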
